A study of Macaca mulatta with 3 samples.

Results

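The 1887 peaks described here are the narrowest regions in a list of 24248 H3K4me3 peaks from the prefrontal cortex of a rhesus macaque. They were chosen from the authors' list by width and by input signal. Of the 2538 listed peaks of 200 or 400 bases, 1905 lay on chromosomes 1 to 9, 11 to 15, 17 and 18. A further 18 were left out because their input exceeded 10 times its genome mean of 3.20 tags per kb. The members comprised 369 peaks of 200 bases and 1518 of 400 bases. Both the width and the input density were measured in the libraries described below, so the excess of ChIP over input in these peaks is a description and not a finding.

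H3K4me3 is histone H3 trimethylated at lysine 4. SET1 and MLL methyltransferase complexes place it on nucleosomes around active transcription start sites, and a typical promoter carries a block of marked nucleosomes on both sides of the start. Weaker or shorter patches of the mark occur at some enhancers and at promoters used by few cells of a tissue.

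The study mapped H3K4me3 to locate start sites in the macaque genome. The ChIP library was made from frozen superior frontal gyrus of 1 male aged 3389 days, with an antibody against H3K4me3. The input library was made from sheared DNA of the same tissue without precipitation. RNA pooled from 5 males was not analysed here. The tissue was bulk cortex, in which fewer marked cells and less mark per cell cannot be told apart. The gene table at hand belongs to another assembly, since on 19 of 21 chromosomes it places genes more than 1 Mb past the last tag. No gene was therefore assigned to a peak, and the tissue label was not checked against marker genes. The ChIP library held 10023993 tags and the input 9162762. There was 1 library of each kind, so every p-value compares tags of these libraries, and intervals cover counting error only.

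Narrow peaks rested on few tags. Each tag was counted at its 5′ end. A member held a median of 11 ChIP tags (interquartile range 9 to 13), from 1 in the poorest to 82 in the richest. The median input was 2 tags (1 to 3, highest 12), and 193 members (10.2%) held no input tag. Peaks of 600 to 800 bases on the same chromosomes held medians of 15 ChIP and 4 input tags, and 2.16% of them had no input tag. Per 100 bases, narrow peaks carried more ChIP tags than these, 3.19 against 2.50, and peaks of 200 bases carried the most, 3.86. A short region needs dense tags to be listed, so this order comes with the choice of members. Input density differed less, with 0.662 tags per 100 bases in narrow peaks and 0.599 in peaks of 600 to 800 bases.

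Enrichment is given as a ratio, the ChIP tags per input tag in a peak after scaling for library size (the ChIP library being 1.09 times as large). Where input tags were missing 3 were assumed, the limit that a count of 0 allows. The ratio is then a lower bound with regard to input, and counting error of the ChIP tags comes on top of it. The median ratio of the narrow peaks was 3.96 (95% interval 3.88 to 4.11), with an interquartile range of 2.86 to 5.94. It was 3.35 (3.20 to 3.66) at 200 bases and 4.11 (3.96 to 4.27) at 400 bases. Just beyond the width limit, peaks of 600 bases had a median of 3.96 (3.66 to 3.96). The assumed 3 input tags applied to 23.3% of peaks of 200 bases, 7.05% of 400 and 3.14% of 600. Pooled over all tags of a width, where none are assumed, the ratios were 5.08, 4.32 and 3.93, highest at 200 bases. The order of the medians is therefore not read as an order of enrichment. At the limit on input, the 7 members at 9.38 times the genome mean had ratios of 0.914 to 2.36, and the 3 left-out peaks at 10.2 times had 2.32 to 5.98.

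**Figure D1:**
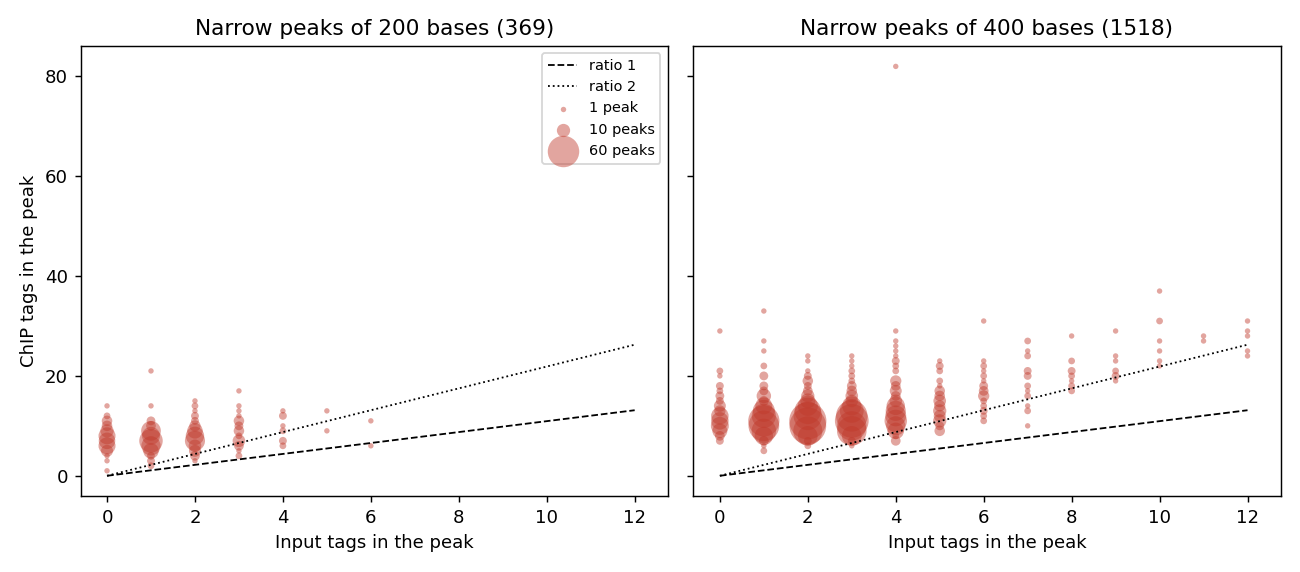
ChIP tags (vertical axis) against input tags (horizontal axis) of each narrow peak, for the 369 peaks of 200 bases and the 1518 of 400 bases. Circle area shows how many peaks share a pair of counts, and the lines mark ratios of 1 and 2. The medians are 7 ChIP and 1 input tag at 200 bases and 11 and 2 at 400 bases, and 1 peak of 400 bases stands apart at 82 ChIP tags.

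The plot of ChIP against input tags shows how few members left the low range. Only 94 (4.98%) held 20 or more ChIP tags, and 7 held 30 or more. The richest was a peak on chromosome 11 at 8855801 to 8856200. It held 82 ChIP tags and 4 input tags, a ratio of 18.7 (7.05 to 70.4). Its tags were evenly divided, 40 on the plus strand and 42 on the minus strand, and stood at 69 distinct places. The 1 kb below it held 0 ChIP tags and the 1 kb above it held 5. Its tag number matched that of much wider peaks, since the median of peaks of 2600 bases or more was 81.

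The next members by tag number varied in their input. A peak on chromosome 15 at 1722401 to 1722800 held 37 ChIP and 10 input tags, a ratio of 3.38 (1.65 to 7.63). On chromosome 11 at 88153401 to 88153800, 33 ChIP tags stood against 1 input tag, a ratio of 30.2 (5.05 to 1227). Only 11 of the 33 had the tag code U0, the one code that the input file holds, and on these the ratio was 12.5 (1.81 to 537). That peak had no ChIP tag within 1 kb on either side, and its nearest listed peak was 430.4 kb away. Each of 4 others held 31 ChIP tags. On chromosome 1 at 2442601 to 2443000 and on chromosome 5 at 91246001 to 91246400 they stood against 10 input tags, a ratio of 2.83 in both. On distinct tags of code U0 the ratio was 2.61 (1.19 to 6.14) for the peak on chromosome 1 and 1.70 (0.715 to 4.24) for that on chromosome 5. On chromosome 6 at 176185801 to 176186200 the 31 tags stood against 6, a ratio of 4.72 (1.94 to 13.8). It was 4.35 (1.72 to 13.1) on distinct tags of code U0. The last, on chromosome 15 at 4160001 to 4160400, stood outside the rule for named peaks because of this tie. It held 12 input tags, a ratio of 2.36, and 1.13 (0.466 to 2.76) on distinct tags of code U0. On such tags the peak on chromosome 15 at 1722401 had a ratio of 2.27 (1.01 to 5.43). The richest peak, on chromosome 11 at 8855801, had 19.3 (7.20 to 72.8).

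The listed edges did not enclose the 5′ ends of many tags that lay next to them. When every tag was moved 75 bases downstream, towards the middle of its fragment, the narrow peaks caught 24035 ChIP tags in place of 21717, or 110.7% of the unmoved number. Peaks of 600 to 800 bases gained less, to 104.7%. Input tags in narrow peaks went from 4509 to 4463. A move of 150 bases lowered the ChIP number to 20039. The median ratio was 4.57 with tags moved by 75 bases.

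With tags moved, the members piled up at a few tag numbers. Of the 369 peaks of 200 bases, 147 held exactly 9 ChIP tags, 69 held fewer, and the lowest held 6. Of the 1518 peaks of 400 bases, 437 held exactly 11, 133 held fewer, and the lowest held 9. Thus 58.5% of the first width and 37.5% of the second stood at or below its commonest number. The extreme case was chosen after its values were seen: a peak of 200 bases on chromosome 2 at 63635001 to 63635200 held 1 ChIP tag by 5′ ends and 9 once tags were moved, with 0 input tags both times. It was among 8 members with 3 or fewer tags by 5′ ends, all of which held 9 when moved.

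The value that the authors give to each peak also took few levels. The 1887 members shared 132 distinct deposited values, with a median of 5.16e-06, and every listed value was below 0.001. The commonest, 0.000315, belonged to 217 members, of which 133 held 11 ChIP and 3 input tags after the move. The next, 8.66e-06, belonged to 204, of which 128 held 11 and 2. Another, 8.23e-09, belonged to 127, of which 82 held 11 and 1. Most members at these 3 values thus held the same 11 ChIP tags and differed in having 3, 2 or 1 input tags.

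Under a recount at 5′ ends, 1006 of 1887 narrow peaks (53.3%) passed an exact binomial test (two-sided) for a difference between ChIP and input, with Benjamini-Hochberg adjusted p under 0.05 over all listed peaks and a ratio of at least 2. Over the whole list 77.4% passed. Because the peaks were listed on this contrast, nothing is read from either share. The count followed the width, with 106 peaks of 200 bases (28.7%) and 900 of 400 bases (59.3%), and it followed the tags available. A peak without input tags needed 7 ChIP tags to pass, and 165 of 193 did. With 2 input tags it needed 11, and 252 of 501 passed. With 4 it needed 14, and 67 of 204 passed. With tags moved by 75 bases 1455 members (77.1%) passed, against 84.1% of the list, and 918 of them were among the 1006. With distinct tags of code U0 alone 837 (44.4%) passed, against 68.7% of the list, and 717 were shared with the 1006.

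Most narrow peaks, like most wider ones, stood by themselves. The nearest other listed peak was at least 5 kb away for 1241 members (65.8%, exact interval 63.6 to 67.9) and at least 50 kb away for 514 of these (27.2% of all members). It was 1 to 5 kb away for 288 (15.3%) and under 1 kb away for 358 (19.0%, 17.2 to 20.8). The median distance was 15 kb (13.2 to 17.6). Among peaks of 200 bases 18.4% lay under 1 kb from another peak, and among those of 400 bases 19.1%.

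**Figure D2:**
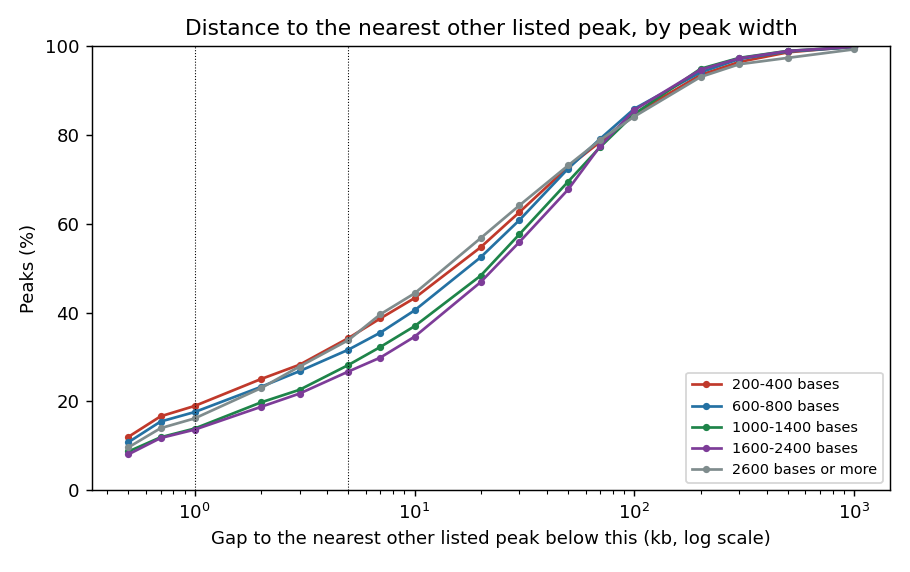
Cumulative share of peaks (vertical axis, percent) by distance to the nearest other listed peak (horizontal axis, kb, log scale), for narrow peaks and 4 classes of wider peaks. The smallest distance is 0.4 kb, and 19.0% of narrow peaks lie under 1 kb from a neighbour against 17.6% at 600 to 800 bases and 13.9% at 1000 to 1400.

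The curves of distance to the nearest peak ran near each other for all widths, with median distances of 17.6, 21.2, 22.8 and 14.4 kb in the wider classes from narrower to wider. Under 1 kb from another peak were 17.6% (16.6 to 18.7) of peaks of 600 to 800 bases, 13.9% (13.0 to 14.8) of those of 1000 to 1400, 13.6% (12.6 to 14.8) of those of 1600 to 2400 and 16.2% (14.0 to 18.5) of those of 2600 bases or more. The interval of the narrow peaks overlapped that of the next class and of the widest class, and lay above the intervals of the middle classes. Against all peaks of 600 bases or more pooled (15.1%, 14.6 to 15.7), the share was higher in narrow peaks on 14 of 16 chromosomes. Peaks of exactly 600 bases had 18.9% (17.3 to 20.6), close to the narrow peaks. Peaks of 1 library are not replicates, and this order was not tested.

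The most isolated members were weak peaks like the rest. The farthest, on chromosome 5 at 23397001 to 23397400, was 1548.4 kb from any other peak and held 11 ChIP and 3 input tags, which did not pass the recount (adjusted p 0.0695 in the exact binomial test). The next, on chromosome 11 at 58059001 to 58059400, was 1307.0 kb away and held 12 and 0. A peak on chromosome 8 at 86504401 to 86504800, at 1123.2 kb, held 9 and 4 and did not pass either (adjusted p 0.275, exact binomial test). A peak on chromosome 5 at 172554801 to 172555200, at 993.4 kb, held 11 and 2.

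Among the 358 members under 1 kb from another peak, the partner was usually wider. The nearest peak had 600 bases or more for 328 of them (91.6%) and 200 or 400 bases for 30. Of all listed peaks on these chromosomes 89.4% have 600 bases or more, so the partner's width was close to that of the list. In the wider classes the nearest peak under 1 kb was this wide in 85.4% to 90.5%. The distance was 400 bases, the smallest in the list, for 227 members (63.4%), 600 bases for 87 and 800 bases for 44. The partner lay on the lower side for 174 and on the higher side for 184, and 19 members had a peak under 1 kb on both sides.

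The 324 distinct wider partners below the limit on input had a median width of 1000 bases, 28 ChIP tags (25 to 30) and a ratio of 4.62 (4.42 to 5.18). The 15608 other peaks of 600 bases or more had medians of 1200 bases, 26 tags and 3.84 (3.79 to 3.88). The widest partner, of 12200 bases, stood 0.4 kb from a narrow peak on chromosome 13 at 87535601 to 87536000 and was itself high in input, with 750 ChIP and 461 input tags at 11.8 times the genome mean. Partners without high input included a peak of 7000 bases with 315 and 26 tags, a ratio of 11.1, beside the narrow peak on chromosome 4 at 32682401 to 32682800. Another, of 4800 bases with 255 and 36 tags, lay beside chromosome 17 at 36648401 to 36648800. The narrow peaks next to these 3 held 24, 12 and 19 ChIP tags.

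Narrow peaks close to another peak had somewhat more signal than lone ones. Their median ratio was 4.57 (4.11 to 5.03) against 3.88 (3.66 to 4.11) for members at least 5 kb from any peak, and their pooled ratio 5.40 (4.99 to 5.85) against 4.21 (4.05 to 4.38). With tags moved by 75 bases the medians were 5.03 (4.80 to 5.48) and 4.27 (4.11 to 4.57). Of the close members 65.9% (60.8 to 70.8) passed the recount, and of the lone ones 50.3% (47.5 to 53.1). Both groups held medians of 11 ChIP and 2 input tags, and the share of peaks of 200 bases was 19.0% and 19.3%. Members at 1 to 5 kb had a median ratio of 3.96 and those at 50 kb or more also 3.96, so beyond 1 kb there was no order with distance. These groups were not tested against each other.

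The ratio of ChIP to input was higher in the gap towards the partner than on the outer side. For the 339 members with 1 partner under 1 kb, both sides were compared over the same number of bases, 170 kb in all per side. The gap side held 1356 ChIP and 536 input tags, a ratio of 2.31 (2.09 to 2.56). The outer side held 1126 and 683, a ratio of 1.51 (1.37 to 1.66). With tags moved the gap side held 1013 and 561, a ratio of 1.65 (1.49 to 1.83). The outer side then held 863 and 683, a ratio of 1.15 (1.04 to 1.28), a difference in the same direction. Input tags were fewer on the gap side in each case. The gap side borders both the member and its partner, and the outer side the member alone. How far this sets the difference was not tested.

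Strands were balanced over whole peaks. Of the ChIP tags in narrow peaks 49.8% (49.1 to 50.4) were on the plus strand, against 49.99% outside peaks. No member was called by a two-sided exact binomial test of strand with Benjamini-Hochberg adjusted p under 0.05, against 0.0124% of the list, which is 3 peaks. At an unadjusted p under 0.05 there were 97 members (5.14%), against 4.61% of the list. The test had little reach here: a peak needed 19 tags, all on 1 strand, to be called, and only 114 members held that many. All tags lay on 1 strand in 24 members, of which 19 were 200 bases wide. The most one-sided by p, on chromosome 1 at 128931401 to 128931800, had 13 plus tags and 0 minus tags (exact binomial p 0.000122, adjusted 0.393). On chromosome 15 at 23776401 to 23776800 there were 11 and 0, and on chromosome 5 at 141637201 to 141637400 there were 10 and 0. On chromosome 12 at 102362001 to 102362400 there were 13 and 1.

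Within the peaks the strands were offset in mirror image. Plus tags fell on the lower side of the centre in 63.9% (63.0 to 64.8) of cases and minus tags in 37.4% (36.5 to 38.3). In peaks of 200 bases these shares were 73.5% and 27.3%, and in peaks of 600 to 800 bases 54.1% and 45.7%. An offset of the same number of bases moves these shares less in a wider peak, so they do not compare offsets between widths. Input tags inside narrow peaks were offset less, with 55.5% and 45.5%. With tags moved by 75 bases the order turned over, to 46.7% and 53.4%.

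**Figure D3:**
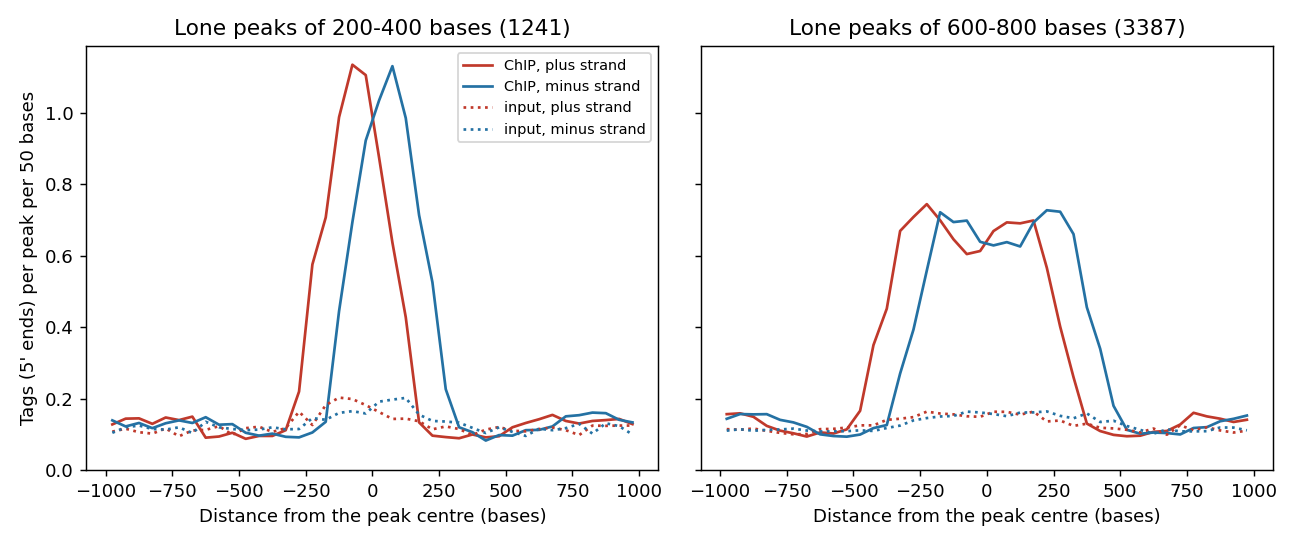
Tags per peak in bins of 50 bases (vertical axis) by distance from the centre (horizontal axis, bases) of the 1241 lone narrow peaks and of 3387 lone peaks of 600 to 800 bases, for plus and minus tags of the ChIP and input libraries. In narrow peaks ChIP plus tags are highest at -75 bases (1.13 tags per peak) and ChIP minus tags at 75 bases (1.13), while input stays near 0.203 at its highest.

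The profile of lone narrow peaks by strand gave the same picture in position. ChIP plus tags were highest in the bin at -75 bases and minus tags in the bin at 75 bases, with 1.13 tags per peak per 50 bases each. Away from the peaks the level was 0.132 and 0.133. The input had low maxima of 0.203 and 0.202 at -125 and 125 bases, above its surrounding 0.113 and 0.115. Pairs of a plus tag and a minus tag downstream of it in the same peak were commonest at a distance of 114 bases, with an earlier maximum at 36 bases, which is the tag length. The smoothed numbers of pairs at these maxima, 261 and 248, and at the minimum between them, 227, were close. Peaks of 600 to 800 bases had their maxima at 37 and 125 bases. Fewer pairs far apart fit in a short peak, so these distances do not compare offsets between widths.

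Tags just outside the listed edges belonged mainly to the strand that points into the peak. In the first 100 bases below lone narrow peaks 84.2% (82.3 to 86.0) of ChIP tags were plus, and in the first 100 bases above them 84.4% (82.4 to 86.2) were minus. From 100 to 400 bases the shares were 48.4% and 50.1%. Lone peaks of 600 to 800 bases showed the same with 78.3% and 79.3%.

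**Figure D4:**
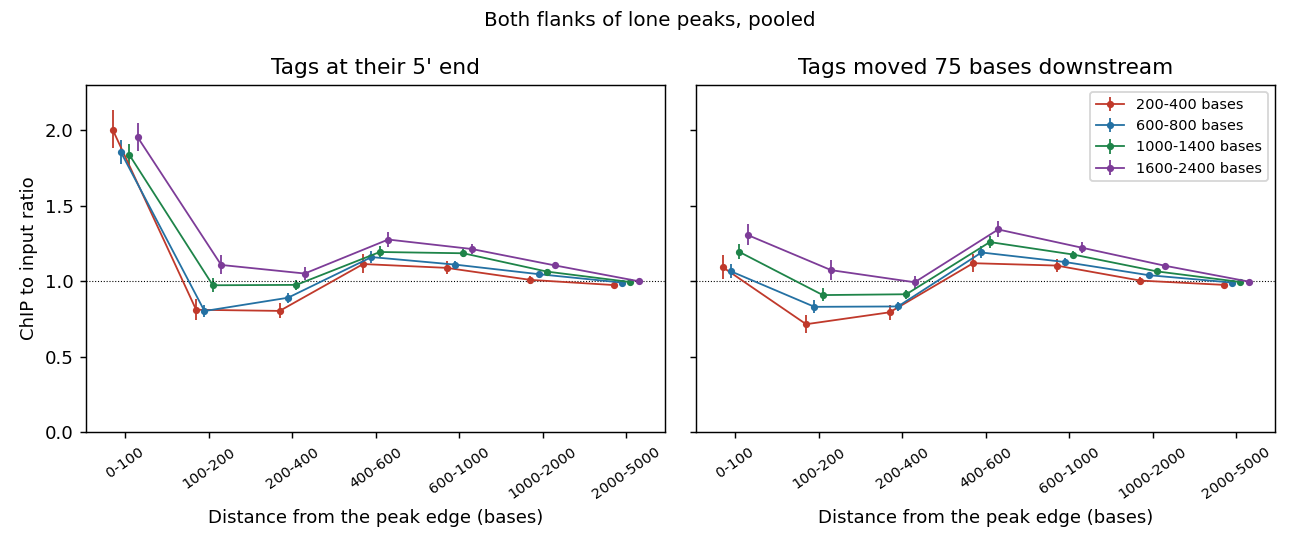
Ratio of ChIP to input (vertical axis) in steps of distance from the listed edge (horizontal axis, bases) around lone narrow peaks and lone wider peaks, with tags at their 5′ ends and moved by 75 bases; bars are exact 95% intervals. For narrow peaks the first 100 bases read 2.0 at 5′ ends and 1.09 with tags moved, and the step from 100 to 200 bases reads 0.811 and 0.716.

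The flanks of lone narrow peaks held little ChIP signal beyond these inward tags. A dip near the edge was followed by a small excess from 400 to 1000 bases. Over the 1 kb on each side the ratio was 1.12 (1.09 to 1.15), and 1.01 with tags moved by 75 bases. As the plot of flank ratio by distance shows, the ratio was 2.0 (1.88 to 2.14) in the first 100 bases, 0.811 (0.745 to 0.884) from 100 to 200, 0.804 (0.756 to 0.854) from 200 to 400 and 1.11 (1.05 to 1.18) from 400 to 600. From 600 to 1000 bases it was 1.09 (1.05 to 1.13), from 1 to 2 kb 1.01 and from 2 to 5 kb 0.975 (0.960 to 0.990). With tags moved, the first step fell to 1.09. The dip stayed, at 0.716 (0.657 to 0.780) from 100 to 200 bases and 0.795 from 200 to 400. The steps from 400 to 600 and from 600 to 1000 then read 1.12 and 1.10 (1.06 to 1.15).

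The dip lies within 400 bases of the edge, and no listed peak has a neighbour closer than that. How far this spacing of the list sets the dip was not tested. The same steps around lone peaks of 600 to 800 bases read 0.831, 0.833 and 1.19 with tags moved. Around lone peaks of 1600 to 2400 bases they read 1.07, 0.993 and 1.34. Over all narrow peaks, those with a near partner included, the ratio in the 1 kb flanks was lower than that of all wider peaks on 10 of 16 chromosomes.

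No narrow peak had raised flanks by the exact binomial test of the 1 kb on each side with Benjamini-Hochberg adjustment, against 0.0248% of the list, which is 6 peaks. Flanks lie next to bases listed on this same contrast and leave out other listed peaks, so this count is a description. The test also had little reach, since even flanks with 26 ChIP and 4 input tags were not called. At an unadjusted p under 0.05 flanks were above input for 145 members (7.68%), against 7.78% of the list, and below it for 19 (1.01%), against 0.999%. Both shares were near the background. The highest flank ratio of a lone member with at least 20 ChIP tags there was at chromosome 14, 10781601 to 10782000, whose flanks held 22 ChIP and 3 input tags, a ratio of 6.70 (adjusted p 0.140 in the exact binomial test). The peak itself had 13 and 2 over 400 bases, a higher density of ChIP tags than in the 1 kb on each side. On chromosome 13 at 61044401 to 61044800 the flanks held 26 and 4 (adjusted p 0.121, same test). The peak held 7 and 0 over 400 bases, again the higher density of ChIP tags. On chromosome 11 at 50528001 to 50528200 they held 24 and 5, and on chromosome 2 at 107350601 to 107351000 they held 21 and 5.

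The ChIP tags carry a code, U0, U1 or U2, which the labels do not explain. It resembles the codes by which some aligners mark a unique match by its mismatches. All input tags carry U0, so there is no control value. In narrow peaks 23.0% (22.5 to 23.6) of ChIP tags had U1 or U2, that is 5000 of 21717, and 4.82% had U2. The share was 21.6% (20.1 to 23.2) at 200 bases and 23.2% at 400. It was 22.3% (22.0 to 22.6) in peaks of 600 to 800 bases, 21.9% in those of 1000 to 1400, 21.4% in those of 1600 to 2400 and 22.6% in those of 2600 or more. Outside peaks it was 18.7%, and in the peaks of the list that exceed the limit on input it was 61.6%. The 1 kb flanks of the narrow peaks stood between, with 21.5% (20.9 to 22.0). The share was higher in narrow peaks than in wider ones on 11 of 16 chromosomes, so the small difference from the wider classes did not hold on each.

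**Figure D5:**
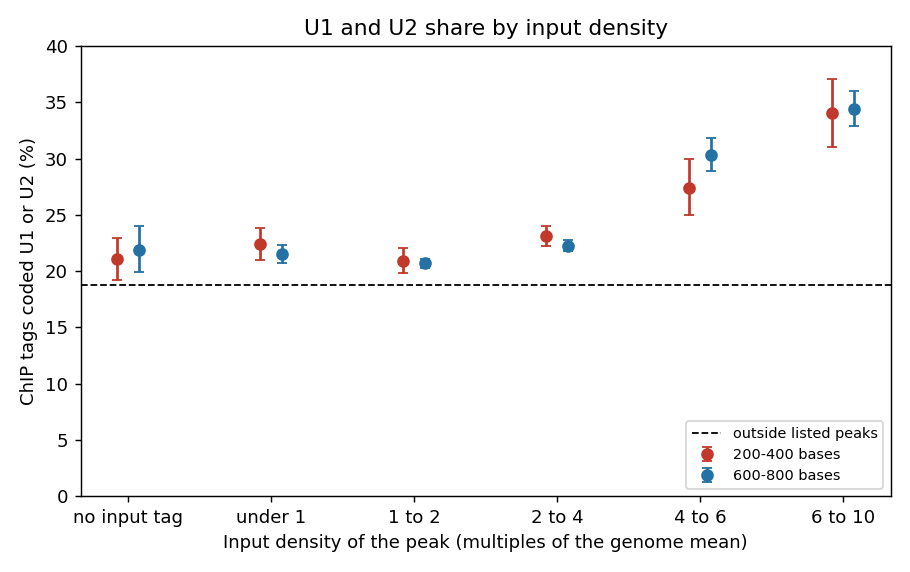
Share of ChIP tags with code U1 or U2 (vertical axis, percent) by input density as a multiple of its genome mean (horizontal axis), for narrow peaks and peaks of 600 to 800 bases; bars are exact 95% intervals and the dashed line is the share outside listed peaks. In narrow peaks the share is 21% without input tags and 34.0% at 6 to 10 times the mean, and in peaks of 600 to 800 bases 21.9% and 34.4%.

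The plot of U1 and U2 share by input density shows where the higher shares were. The share in narrow peaks was 21% in peaks without an input tag, 22.4% below the genome mean, 20.9% at 1 to 2 times, 23.1% at 2 to 4, 27.4% (25 to 29.9) at 4 to 6 and 34.0% (31.1 to 37.0) at 6 to 10 times. Peaks of 600 to 800 bases gave 21.9%, 21.5%, 20.7%, 22.2%, 30.3% and 34.4% in the same steps. The top step held 52 narrow peaks, and in 13 of them the share was raised by the test given next. Among peaks of 600 to 800 bases in that step it was raised in 33 of 88. Below 4 times the mean no order with input was seen in either class.

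By the exact binomial test against tags outside peaks, with Benjamini-Hochberg adjusted p under 0.05, the U1 and U2 share was raised in 71 members (3.76%), against 4.43% of the list. It was lowered in none, against 0.0825% of the list, but few tags left little reach downwards. On chromosome 7 at 68988601 to 68989000 all 13 tags had U0, and the adjusted p was 0.581 (same test). At an unadjusted p under 0.05 the U1 and U2 share differed in 216 (11.4%), against 13.9% of the list. The share of members with a raised value was thus near the background. The 71 had a median of 15 ChIP tags, an input of 3.13 times the genome mean (2.34 to 3.91) and a ratio of 3.35 (3.05 to 4.27). The other members had 11 tags, 1.56 times and 4.11. On distinct ChIP tags of code U0 the median ratio was 1.32 (1.13 to 1.70) in the 71 and 3.97 (3.78 to 4.16) in the others. The call weighed U1 and U2 tags against the U0 tags of the same peak, so this order comes with the choice of the 71. The flanks of the 71 were also rich in U1 and U2 tags, with 35.5% (32.3 to 38.9) against 20.9% around the other members. These flank tags were not used to call the 71. Of the 71, 44 (62.0%) passed the recount on all codes, against 53.0% of the other members. Under 1 kb from another peak lay 11 (15.5%, 8.00 to 26.0), against 19.1%.

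Among members with at least 20 ChIP tags, the highest U1 and U2 share was 82.6% on chromosome 4 at 15475601 to 15476000, from 4 tags of code U0, 7 of U1 and 12 of U2. It held 10 input tags and did not pass the recount (adjusted p 0.0642 in the exact binomial test). The next were 80.0% of 20 tags on chromosome 18 at 28755601 to 28756000, 77.8% of 27 on chromosome 5 at 179840401 to 179840800 and 70.8% of 24 on chromosome 4 at 118015601 to 118016000. These 3 held 6, 11 and 7 input tags. All 4 thus had input of 4.69 times the genome mean or more. The peak of 33 tags on chromosome 11 at 88153401 to 88153800, with 66.7%, was different, with 1 input tag and 0.781 times the mean. At the other end, 287 members had no U1 or U2 tag.

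Members close to another peak had a lower U1 and U2 share, 20.9% (19.7 to 22.2), than lone members, 23.3% (22.6 to 24.0). Their median input was 1.56 times the genome mean in both groups. These shares were not tested against each other.

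Narrow peaks were spread over all 16 chromosomes. They made up 8.33% of the listed peaks on chromosome 2, the lowest share, and 13.8% on chromosome 18, the highest. Per Mb they ranged from 0.461 on chromosome 5 to 1.11 on chromosome 1, where the list is also dense. Within 2 Mb of the first or last base of a chromosome lay 144 of them (7.63%), against 8.18% of the peaks of 600 to 800 bases and 7.11% of all peaks of 600 bases or more.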

How the data were processed

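H3K4me3 ChIP and input tags of 1 animal were analysed. The authors deposited 1 line per aligned tag with position, strand, code and a score, which was 0 throughout and not used. They also deposited a peak list giving each peak a p-value (raw or adjusted is not stated), used here as theirs. Per the submitters' processing notes TopHat and SICER were used, with no role stated. Which aligner and build made the tags is not given in the sources used here. ChIP tags spanned 36 bases and carried U0, U1 or U2; input tags spanned 38 bases, carried U0 alone and never repeated a position, whereas 34352 ChIP tags did, so the files were not filtered alike.

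Coordinates are those of the files, counted from 1. Tags were counted at 5′ ends in all 24248 listed peaks, and all tests are two-sided exact binomial tests adjusted by Benjamini-Hochberg over them, or over the 24233 with a tag there for flanks. Shares and ratios have exact 95% Clopper-Pearson intervals, and medians have order-statistic intervals, which treat peaks as independent. PCR copies are not independent molecules. Flanks leave out bases inside other peaks.

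The members and the lists of peaks compared were chosen with earlier results of these data known. Peaks named by position are the 6 with most tags, the 6 with the highest ratio (30 or more ChIP tags and an input tag), and 4 each by U1 and U2 share (at least 20 tags), strand p, distance, width of a close neighbour and flank ratio of lone peaks (at least 20 flank tags). Alternatives were tags moved 75 bases, 1 tag per position and strand, distinct U0 tags, an input ceiling of 5 times, a stricter deposited value, peaks of 400 bases only, all 20 autosomes and X, lone peaks from 50 kb, and neighbours within 500 bases, within 2 kb or of 600 bases or more only. Moved tags for the sides of a peak, and U0 ratios of the peaks with at least 30 tags and by U1 and U2 call, were added after seeing the data. The tests of ChIP against input, strand and U1 and U2 share were checked on simulated counts per peak. Tests used scipy 1.17.1 and numpy 2.4.6 in Python 3.11.15, tables pandas 2.3.3 and figures matplotlib 3.10.9.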

Additional observations from a re-analysis of the deposited data

How the results depend on the processing

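Among 55 alternatives, those added after seeing the data aside, 8 left the interval of the reported value or changed the reported count by over 1.5 times, and the other 47 did not. The share of narrow peaks close to another peak was 12% with a limit of 500 bases, 25% with 2 kb, and 23.1% among members with a deposited value under 1e-05. The median ratio was 4.57 with tags moved 75 bases and 5.03 with a deposited value under 1e-05. The U1 and U2 share was 22.4% with an input ceiling of 5 times the mean. The flank ratio of lone members was 1.01 with tags moved 75 bases and 1.09 with distinct U0 tags. The added ones, for the sides of a peak and for ratios on U0 tags, are given beside their results. No paired analysis was possible because there was 1 library of each kind. Depth limits the calls of strand, which 114 members held enough tags to reach, and those of a lowered U1 and U2 share. It also limits those of raised flanks, and those on recount, which follow the number of tags in a peak. Over the same 1887 members the count on recount ranged from 837 with distinct U0 tags to 1455 with tags moved. Among the 1193 members with a deposited value under 1e-05 it was 814. The share of the whole list at that cut was not taken, so nothing is read from this count.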

Other observations

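The 18 narrow peaks left out for high input had input of 10.2 to 42.2 times the genome mean, a median ratio of 2.07 and a U1 and U2 share of 51.5%. Among them was the only listed peak of 200 or 400 bases whose strands were called unbalanced. It lay on chromosome 15 at 86176001 to 86176400, with 29 of 33 ChIP tags on the plus strand (adjusted p 0.0496, exact binomial test over all listed peaks) and 13 input tags.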
